A study of Drosophila melanogaster with 35 samples.

Results

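Peptidoglycan recognition and NF-kappaB signaling were followed through 7 genes of Drosophila melanogaster: the peptidoglycan recognition proteins PGRP-SB1, PGRP-LB and PGRP-LE, the Toll ligand spz (spatzle), the inhibitor cact (cactus) and the transcription factors dl (dorsal) and Rel (Relish). The genes were chosen by name, as every probe set to which the array's annotation gives one of these symbols. Each symbol had 1 probe set, so 7 of 13966 probe sets, or 7 of 10844 genes, are described. Levels of different probe sets are not compared with each other, because probe sets differ in how strongly they hybridize.

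RNA of whole adult males was hybridized to 35 Affymetrix DrosGenome1 arrays, 1 array for each pool of 25 flies. All groups had the genotype w[1118]; P{w+ rtTA}(3)[E2]/+. They were the balancer-free sons of Oregon-R males and females of a w[1118] strain with an rtTA insertion, so control flies carried the transgene too. Old flies (4 arrays, 61 days) and Hyperoxia flies (6 arrays, 8 days, held in 100% oxygen for 5 days from day 3) were set against Young controls (6 arrays, 10 days). The labels give about 50% survival of the cohort at sampling for both Old and Hyperoxia flies, so those arrays describe the flies still alive. Heat stress flies (3 arrays, 9 days) spent 5.5 hours at 37 °C in vials of 1% sucrose. Ionizing radiation flies (4 arrays, 11 days) received 5666 rads per hour for 16 hours and then recovered for 2 days on sucrose, Hydrogen peroxide flies (4 arrays, 11 days) were fed 3% peroxide in sucrose for 2 days, and Sugar flies (4 arrays, 11 days) had sucrose alone for 2 days. These 4 groups were set against Stress controls (4 arrays, 9 days). No group spent 5.5 hours in sucrose vials without heat, so effects of heat and of those vials cannot be told apart. The labels call the vials of the stress study biological replicates. They do not say whether the pools of the aging study came from separate cultures, and p-values there measure only the spread between those samples.

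Insects detect bacteria largely through peptidoglycan, a polymer of the bacterial cell wall. In flies, peptidoglycan recognition proteins either bind it and start a signal or cut it and so reduce the signal. The Imd pathway responds mainly to peptidoglycan of Gram-negative type and acts through Rel, while the Toll pathway is started outside the cell by cleavage of Spatzle and acts through dl and its relative Dif, both held in the cytoplasm by Cactus. Both pathways drive antimicrobial peptide genes in the fat body, and Imd also does so in the gut.

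Rel was called higher in all 6 groups than in the controls of the same study, by 0.61 on the log2 scale in Hyperoxia flies up to 2.31 in Hydrogen peroxide flies. PGRP-SB1 was called higher in Old flies, by 1.81, and lower in every other group but Sugar, by 0.69 to 3.16. The other members were called in 1 to 4 of the 6 groups. How many of all probe sets were called in as many groups was not counted. A call required limma's nested F-test at a false discovery rate of 1% over the 6 contrasts together with a fold of at least 1.5, and values are log2 fold changes of normalized signal plus 34.1.

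**Figure D1:**
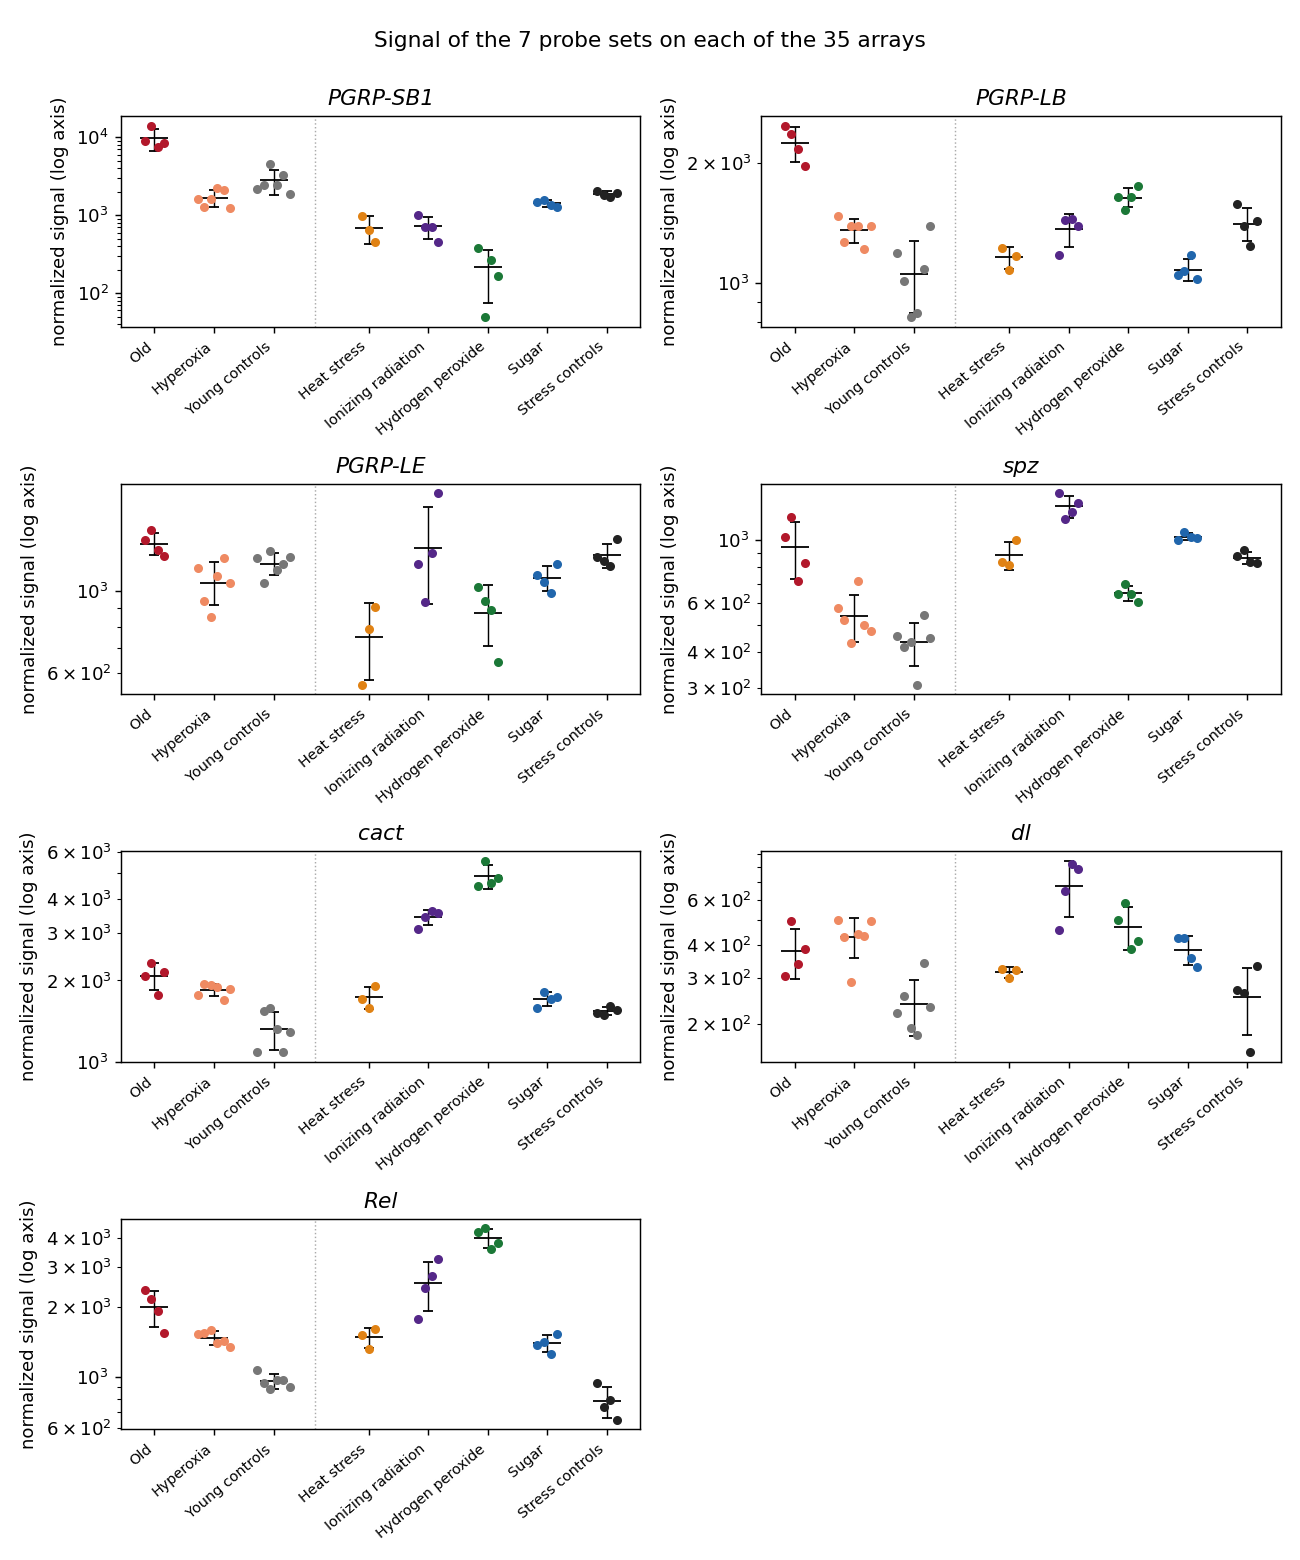
Quantile-normalized signal of each member (log axis) on each of the 35 arrays, grouped by treatment; bars give the mean and SD, and the dotted line divides the aging study from the stress study. Rel and cact are highest in Hydrogen peroxide flies, while PGRP-SB1 is highest in Old flies and lowest in Hydrogen peroxide flies.

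In Old flies, 6 of the 7 members were called higher and none lower, where 13.1% of all probe sets were called (5.02% higher and 8.11% lower). Hyperoxia gave 2 members higher and 1 lower, where 7.32% of probe sets were called (3.18% higher and 4.14% lower). Heat stress gave 1 member higher and 2 lower, against a background of 12.3% (5.27% higher and 7.04% lower). Ionizing radiation gave 3 higher and 1 lower, against 14.4% (7.05% higher and 7.38% lower), and Hydrogen peroxide also gave 3 higher and 1 lower, against 17.0% (8.22% higher and 8.81% lower). Sugar gave 1 member higher, which was Rel, against 4.93% (2.80% higher and 2.13% lower). Old and Hyperoxia share the Young controls, and the other 4 contrasts share the Stress controls, so calls within a study are not independent of each other.

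**Figure D2:**
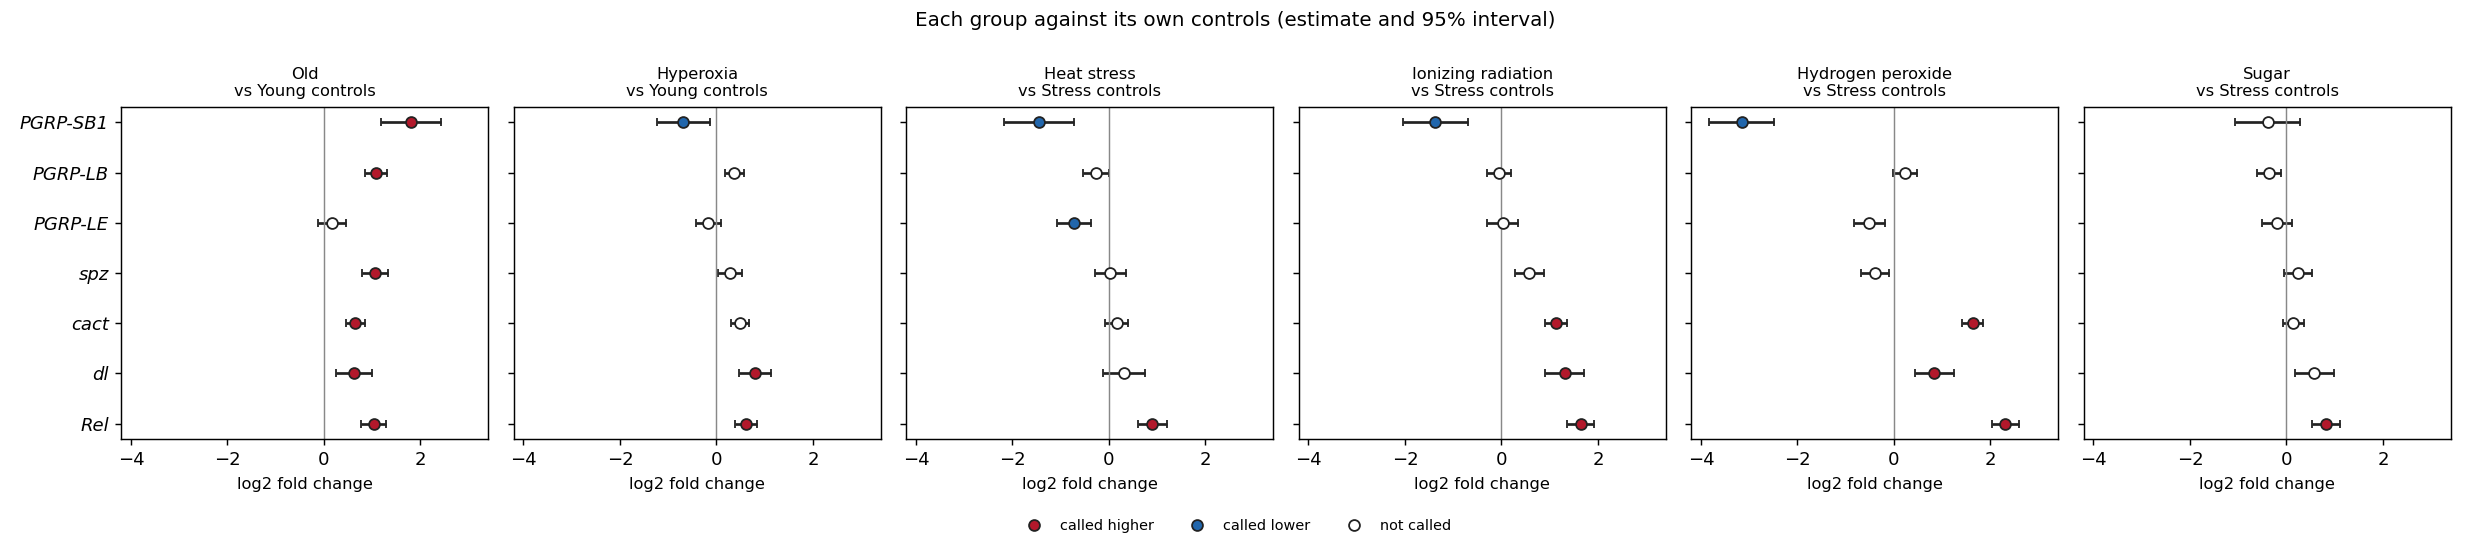
Log2 fold change of each member in each group against the controls of its study, with 95% confidence intervals from the limma fit; filled circles are called higher (red) or lower (blue) and open circles are not called. Rel lies above 0 in all 6 panels, and PGRP-SB1 is the member with the widest range, from -3.16 to 1.81.

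PGRP-SB1 (CG9681, probe set 142657_at) encodes a secreted amidase that cleaves peptidoglycan. Its signal on the 4 Old arrays was 8898, 14096, 7428 and 8548. On the 6 Young control arrays it was 1855 at the lowest, 2458 at the median and 4555 at the highest. Every Old array lay above every Young control array. The log2 fold change was 1.81 ± 0.30 (SE; limma, adjusted p = 2.38e-05), a 3.50-fold difference, and it was 1.62 without Old replicate 2, the highest array. RNA of whole flies cannot tell fewer cells of a type from less RNA per cell, and this holds for every member.

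Under the stresses PGRP-SB1 moved the other way. Signals were 49.3, 164, 264 and 381 on the Hydrogen peroxide arrays, against 1708, 1817, 1917 and 2055 on the Stress control arrays. The highest peroxide array was thus far below the lowest control array, and one peroxide array came close to the added constant of 34.1. The log2 fold change was -3.16 ± 0.33 (SE; adjusted p = 4.13e-09), an 8.95-fold lower level, with the widest spread of any group for this gene (coefficient of variation 65.9%). Heat stress arrays read 988, 646 and 454, and Ionizing radiation arrays 1016, 714, 712 and 458. Neither group overlapped the Stress controls, and the log2 fold changes were -1.45 ± 0.36 (SE; adjusted p = 0.00335) after heat and -1.38 ± 0.33 (SE; adjusted p = 0.00193) after irradiation. Sugar arrays lay between 1259 and 1588, also below all Stress control arrays, but this difference of -0.39 did not pass (95% interval -1.07 to 0.28).

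Hyperoxia flies had PGRP-SB1 signals of 1227 at the lowest, 1612 at the median and 2265 at the highest, against the same 1855, 2458 and 4555 in Young controls. The groups overlapped. The call rests on the nested F-test, in which the other contrasts carry the gene: within the Hyperoxia contrast the log2 fold change of -0.69 had a limma adjusted p of 0.0862. It was no longer called without Young controls replicate 3 (-0.54) or without Hyperoxia replicate 6 (-0.61).

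PGRP-LB (CG14704, probe set 152827_at) encodes an amidase that degrades peptidoglycan and so dampens Imd signaling. Old arrays read 2483, 2361, 2169 and 1965, against 823 at the lowest, 1048 at the median and 1394 at the highest on Young control arrays. All 4 Old arrays were above all Young controls, and the log2 fold change was 1.08 ± 0.11 (SE; limma, adjusted p = 7.93e-09). PGRP-LB was not called in any of the other 5 contrasts with controls, where log2 fold changes ran from -0.37 in Sugar to 0.37 in Hyperoxia. The Hyperoxia difference passed the adjusted p (0.00851) but not the fold limit.

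PGRP-LE (CG8995, probe set 151798_at) encodes a receptor that binds peptidoglycan inside cells and activates Imd. It was called in Heat stress flies, with signals of 559, 791 and 907 against 1167, 1202, 1229.9 and 1376 in Stress controls. The arrays did not overlap, and the log2 fold change was -0.72 ± 0.17 (SE; limma, adjusted p = 0.00186). This call depended on Heat stress replicate 1, the lowest array, without which the value was -0.53 (adjusted p = 0.0342). It also missed the threshold when limma was fitted to the 2 groups alone (adjusted p = 0.0221) or to the stress study alone (adjusted p = 0.0146). Hydrogen peroxide arrays read 1021, 941, 886 and 643, all below the Stress controls as well. Their log2 fold change of -0.51 (adjusted p = 0.012) was under the fold limit. Without Hydrogen peroxide replicate 1 it was -0.59 and passed.

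Old and Hyperoxia flies overlapped Young controls for PGRP-LE. The differences were 0.17 (95% interval -0.12 to 0.46) and -0.17 (-0.43 to 0.09). Ionizing radiation arrays spread the most, from 933 to 1828, with a mean of 1301 ± 378 against 1244 ± 92.2 in Stress controls (SD, n = 4 each). PGRP-LE, PGRP-LB and spz each had 1 call in the 6 contrasts, the fewest of the members.

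The spz gene (CG6134, probe set 141691_at) encodes Spatzle, the secreted cytokine that binds Toll once cut. Old arrays read 1021, 1204, 716 and 828, while Young control arrays were 307 at the lowest, 442 at the median and 540.5 at the highest. The groups did not overlap, with a log2 fold change of 1.05 ± 0.13 (SE; limma, adjusted p = 2.29e-07). Hyperoxia arrays, at 432 to 717, overlapped the Young controls, and their difference of 0.28 (95% interval 0.04 to 0.52; adjusted p = 0.11) was not called. Ionizing radiation arrays read 1462, 1185, 1259 and 1350.4, against 826, 832, 874 and 919 on Stress control arrays. That difference of 0.58 ± 0.14 (SE; adjusted p = 0.00239) had no overlap between arrays and fell just short of the 1.5-fold limit. It passed without Stress controls replicate 1 (0.59), Stress controls replicate 2 (0.61), Ionizing radiation replicate 2 (0.63) or Ionizing radiation replicate 3 (0.60), and it passed with the values as deposited (0.65).

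Hydrogen peroxide flies had the lowest spz signals of the stress study, 601, 641, 645 and 699, below all Stress controls. The log2 fold change of -0.40 (adjusted p = 0.0346) was not called. Heat stress differed from Stress controls by 0.03 (95% interval -0.29 to 0.35) and Sugar by 0.24 (-0.05 to 0.53). The control groups of the studies stood apart for this gene, 307 to 540.5 in Young controls and 826 to 919 in Stress controls, so the Old arrays overlapped the Stress controls although they were above their own controls. Those control groups were of different studies, and effects of study and of age cannot be told apart between them.

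Cactus, encoded by cact (CG5848, probe set 153684_at), is the fly IkappaB protein. Its signals were 4489.8, 5550.1, 4601 and 4803 on the Hydrogen peroxide arrays, and 3108, 3443, 3615 and 3559 on the Ionizing radiation arrays. The Stress control arrays read 1517, 1487, 1614 and 1561. Both treatments were far above the controls on every array, and the log2 fold changes were 1.63 ± 0.11 (SE; limma, adjusted p = 2.79e-13) on peroxide and 1.13 ± 0.11 (SE; adjusted p = 1.2e-09) after irradiation. Heat stress (1583 to 1910.2) and Sugar (1577 to 1810.5) overlapped the Stress controls and were not called.

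In the aging study cact signals were 2071, 2326, 1766 and 2152 on Old arrays. Hyperoxia arrays had 1687 at the lowest, 1872 at the median and 1947 at the highest, against 1084, 1302 and 1582 on Young control arrays. Neither Old nor Hyperoxia overlapped the Young controls. The log2 fold change was 0.65 ± 0.10 (SE; adjusted p = 7.04e-06) in Old flies, which was called. It was 0.49 ± 0.09 (SE; adjusted p = 0.000139) in Hyperoxia flies, which stayed under the fold limit.

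The transcription factor gene dl (CG6667, probe set 143125_at), whose protein also patterns the embryo, was called in 4 of the 6 groups. Ionizing radiation arrays read 458, 646, 822 and 789 and Hydrogen peroxide arrays 502, 581, 388 and 417, against 155, 261, 268 and 333 on Stress control arrays. Neither treated group overlapped the controls. The log2 fold changes were 1.31 ± 0.20 (SE; limma, adjusted p = 4.43e-06) after irradiation and 0.84 ± 0.20 (SE; adjusted p = 0.00143) on peroxide. The peroxide difference had an adjusted p of 0.019 when only those 2 groups were fitted. Compared with Sugar flies, dl on peroxide was higher by 0.26 (limma adjusted p = 0.376), which was not called, and the arrays overlapped. Sugar arrays (329 to 428) overlapped the controls by 1 array. Their difference of 0.57 was not called, but it was without Stress controls replicate 4 (0.70) or without Sugar replicate 4 (0.64).

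Hyperoxia flies had dl signals of 289.5 at the lowest, 438 at the median and 500.5 at the highest, against 180, 226 and 342 in Young controls. The groups overlapped through 1 low Hyperoxia array, replicate 3, and the log2 fold change was 0.79 ± 0.16 (SE; adjusted p = 0.000571). Old arrays read 304, 495, 339 and 386 and also overlapped the Young controls. The Old difference of 0.62 ± 0.18 (SE) was called by the nested F-test, though its own limma adjusted p was 0.0101. It was no longer called without Old replicate 2 (0.50), Young controls replicate 3 (0.57) or Young controls replicate 4 (0.56).

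Relish, the product of Rel (CG11992, probe set 151822_at), is an NF-kappaB protein with an inhibitory domain of its own that is cut off when Imd is active. Hydrogen peroxide arrays read 4234, 4399, 3582 and 3801 and Ionizing radiation arrays 1782, 2415, 2746 and 3230.3. Heat stress arrays read 1524, 1322 and 1608 and Sugar arrays 1368, 1418, 1255 and 1536, against 939.5, 742, 795 and 649.9 on Stress control arrays. Every array of the 4 treated groups was above every Stress control array. The log2 fold changes were 2.31 ± 0.14 (SE; limma, adjusted p = 1.8e-14) on peroxide and 1.64 ± 0.14 (SE; adjusted p = 6.74e-11) after irradiation. They were 0.90 ± 0.15 (SE; adjusted p = 3.46e-05) after heat and 0.82 ± 0.14 (SE; adjusted p = 0.000298) on sucrose alone. The Sugar arrays were deposited on a lower signal scale than all others, and its effect cannot be told apart from that of sucrose.

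Rel also stood above the controls on every array of the aging study. Old arrays read 2375, 2177, 1923 and 1547, and Hyperoxia arrays had 1343 at the lowest, 1481 at the median and 1602 at the highest. Young control arrays had 883, 955 and 1074. The log2 fold changes were 1.03 ± 0.13 (SE; adjusted p = 1.97e-07) in Old flies and 0.61 ± 0.11 (SE; adjusted p = 0.000174) in Hyperoxia flies. The Hyperoxia value lay close to the fold limit of 0.58 on this scale and was not called without Hyperoxia replicate 3 (0.58, under the limit before rounding) or with the larger pseudocount of 108 (0.57).

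Because irradiated and peroxide-fed flies had also spent 2 days on sucrose, they were compared directly with Sugar flies of the same age. The lower signal scale of the deposited Sugar arrays limits these contrasts too. A direct contrast was called at a limma adjusted p under 0.01 and a fold of at least 1.5. Against Sugar, Ionizing radiation had 3 members higher and none lower (background 12.9%), and Hydrogen peroxide had 3 higher and 2 lower (background 14.4%). Rel was higher than in Sugar flies by 0.82 ± 0.14 (SE; adjusted p = 2.89e-05) after irradiation and by 1.50 ± 0.14 (SE; adjusted p = 5.01e-10) on peroxide. For cact the differences were 0.99 ± 0.11 (SE; adjusted p = 2.45e-08) after irradiation and 1.49 ± 0.11 (SE; adjusted p = 4.19e-12) on peroxide. No array of either treatment overlapped Sugar for these 2 genes.

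PGRP-SB1 was lower on peroxide than on sucrose alone by 2.77 on the log2 scale (adjusted p = 7.43e-08), while the irradiation difference of -0.98 did not pass (adjusted p = 0.0279), although no irradiated array reached the Sugar arrays. It passed when only those 2 groups were fitted (adjusted p = 0.00978). For spz the peroxide difference was -0.64 ± 0.14 (SE; adjusted p = 0.000932), again with no overlap. PGRP-LB was higher on peroxide, 1643, 1530.1, 1643 and 1749 against 1049, 1073, 1181 and 1027 in Sugar flies. This was a log2 fold change of 0.59 (adjusted p = 4e-04) that sat at the fold limit: values were 0.57, 0.58 and 0.56 without Sugar replicate 1, 2 or 4 and 0.58, 0.58 and 0.56 without Hydrogen peroxide replicate 1, 3 or 4, none of them called. The dl difference after irradiation (0.74, adjusted p = 0.00556) was lost without Ionizing radiation replicate 2 (0.75), 3 (0.64) or 4 (0.66) and without Sugar replicate 3 (0.71) or 4 (0.67).

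**Figure D3:**
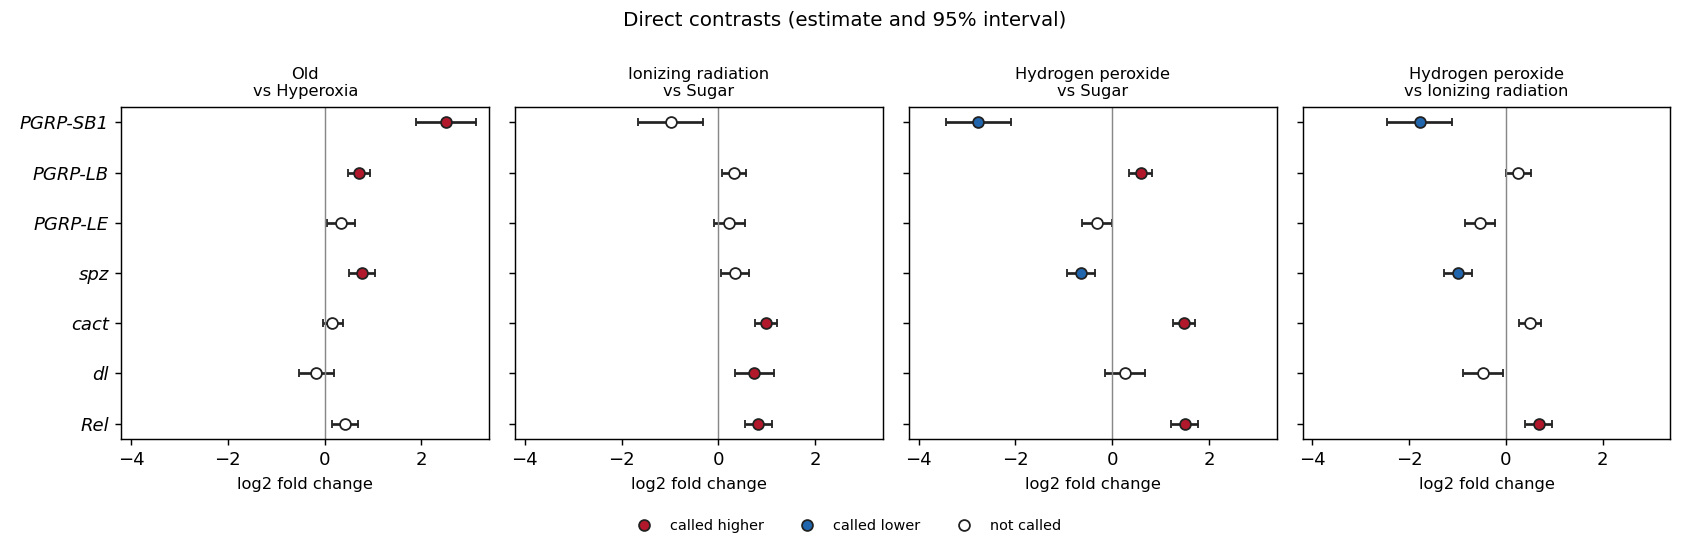
Log2 fold change of each member in the 4 direct contrasts, first-named group over the second, with 95% confidence intervals from the limma fit; filled circles are called higher (red) or lower (blue). On peroxide, PGRP-SB1 and spz lie below both Sugar and Ionizing radiation, and Rel lies above both.

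Peroxide against irradiation gave 1 member higher and 2 lower (background 8.91%). Rel was higher by 0.68 (adjusted p = 0.000616), without overlap, but was not called without Ionizing radiation replicate 1 (0.52). PGRP-SB1 was lower by 1.78 (adjusted p = 0.000181) and spz by 0.98 (adjusted p = 6.91e-06). With only these 2 groups in the fit, spz alone was called, and PGRP-SB1 and Rel had adjusted p of 0.0371 and 0.0515. The difference for cact, 0.50 (adjusted p = 0.00139), was under the fold limit. PGRP-LE differed by -0.54 and was called only without Ionizing radiation replicate 2 (-0.68) or Hydrogen peroxide replicate 1 (-0.62).

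Old flies set against Hyperoxia flies had 3 members higher and none lower (background 13.0%). These were PGRP-SB1 (2.50, adjusted p = 1.14e-07), PGRP-LB (0.71, adjusted p = 8.72e-06) and spz (0.77, adjusted p = 2.95e-05), of which spz overlapped by 1 Hyperoxia array. Fitted on those groups alone, spz had an adjusted p of 0.0111. The 95% interval of the Old minus Hyperoxia difference was -0.04 to 0.37 for cact and -0.54 to 0.20 for dl. For Rel it was 0.16 to 0.68 (limma adjusted p = 0.0132), with overlapping arrays. For PGRP-LE it was 0.05 to 0.63 (adjusted p = 0.0761), and those arrays did not overlap.

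Whether the change with age differed from the change under each stress was tested as a difference of contrasts, at a limma adjusted p under 0.01 with no fold limit. PGRP-SB1 changed differently in Old flies than under all 4 treatments of the stress study, by 3.26 against Heat stress, 3.19 against Ionizing radiation, 4.97 against Hydrogen peroxide and 2.20 against Sugar (adjusted p between 6.56e-10 and 0.00074). PGRP-LB did so too, by 0.86 to 1.45. In all, 4 members differed against Heat stress (background 18.3%), 2 against Ionizing radiation (background 11.5%), 5 against Hydrogen peroxide (background 19.4%) and 3 against Sugar (background 8.89%). Against Ionizing radiation the count was 5 without the 2 arrays of highest actin ratio, with cact (-0.58), dl (-0.98) and Rel (-0.81) added, and 4 with array weights, with cact (-0.53) and Rel (-0.72) added.

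The spz change was larger in Old flies than under Heat stress by 1.02, Hydrogen peroxide by 1.45 and Sugar by 0.81, the last of which was lost without Old replicate 2 (0.69). PGRP-LE differed from Heat stress by 0.90, lost without Heat stress replicate 1 (0.71). The Old change was smaller than the peroxide change for cact (difference -0.98, adjusted p = 6.63e-06) and for Rel (-1.29, adjusted p = 3.46e-06). The Rel difference from Ionizing radiation, -0.61 with an adjusted p of 0.0207, passed without Stress controls replicate 1 (-0.70) or without Ionizing radiation replicate 1 (-0.77). The cact differences from Heat stress (0.49), Ionizing radiation (-0.48) and Sugar (0.51) did not pass, and each did so without one or more single arrays: the first and the last without Young controls replicate 2 (0.54 and 0.56), Young controls replicate 3 (0.55 and 0.56) or Old replicate 3 (0.57 and 0.58), and the second without Young controls replicate 5 (-0.53). PGRP-LE against Hydrogen peroxide (0.69) passed without Hydrogen peroxide replicate 1 (0.76).

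Within the stress study, the groups ordered by mean Rel level as Hydrogen peroxide, Ionizing radiation, Heat stress, Sugar and Stress controls, and of these neighbours Heat stress and Sugar did not differ beyond their spread (difference 0.09, adjusted p = 0.733). For cact the order was the same, but Heat stress, Sugar and Stress controls were not separated. PGRP-SB1 ran nearly the other way, Stress controls, Sugar, Ionizing radiation, Heat stress and Hydrogen peroxide, and among neighbours only Heat stress and Hydrogen peroxide were separated (difference 1.71, adjusted p = 0.000423). Neighbouring groups of the stress study were not separated for PGRP-LB, PGRP-LE, spz or dl. In the aging study the order for Rel and cact was Old, Hyperoxia and Young controls. The difference between Old and Hyperoxia did not pass for Rel (0.42, limma adjusted p = 0.0132) or cact (0.16, adjusted p = 0.262).

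**Figure D4:**
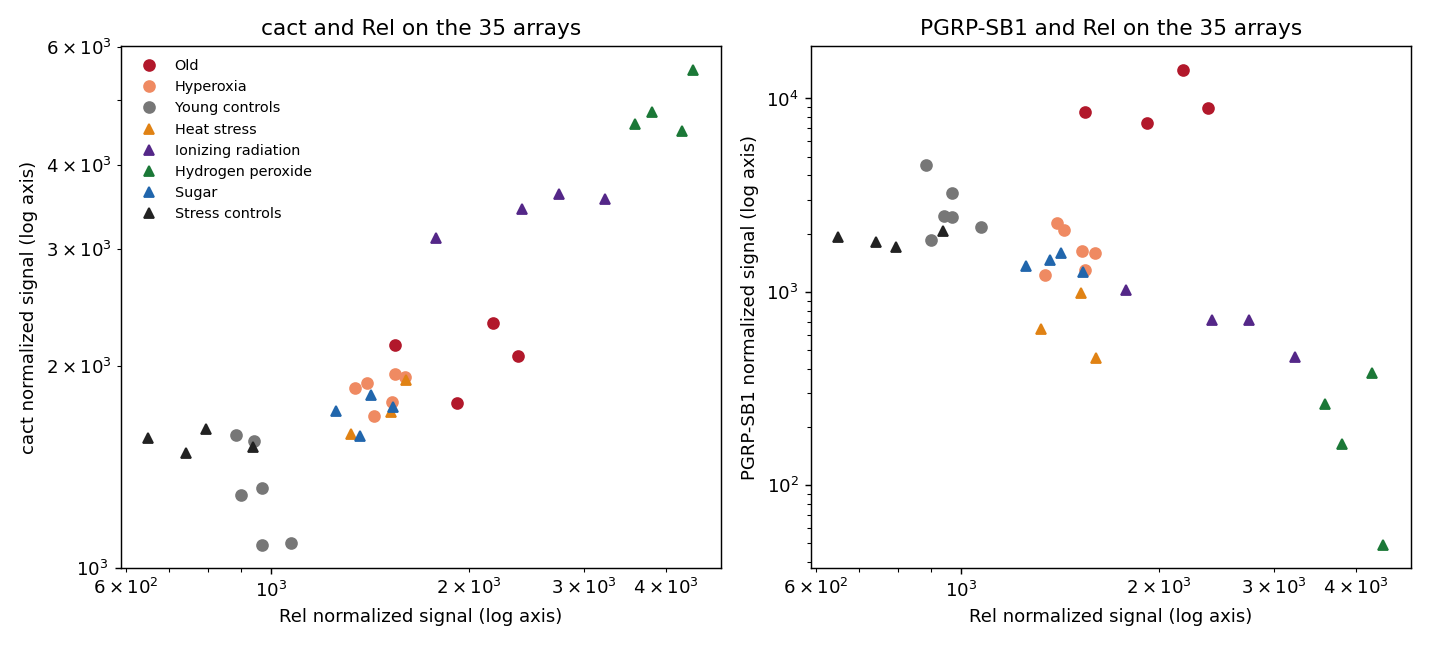
Normalized signal of cact (left) and PGRP-SB1 (right) against that of Rel on the 35 arrays, log axes; circles are the aging study and triangles the stress study. Hydrogen peroxide arrays combine the highest Rel and cact signals with the lowest PGRP-SB1 signals, while Old arrays combine raised Rel with the highest PGRP-SB1 signals.

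Members were also compared by how alike their patterns were, as Pearson's r over the 35 arrays after each array was centred on the controls of its own study. These arrays share groups and controls, so r describes the groups and has no test. Rel and cact were the most alike pair (r = 0.90), followed by Rel and dl (0.68) and cact and dl (0.66). PGRP-SB1 ran against Rel (-0.60) and cact (-0.56) and with spz (0.63).

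Over all single-gene probe sets, the 3 closest to Rel were Ifrd1 (0.942), LTV1 (0.933) and Chmp1 (0.924). Those closest to cact were Spn88Eb, a serpin (0.952), CtsL1, a lysosomal cathepsin (0.951), and atk (0.938). PGRP-SB1 was closest to LManII, a lysosomal mannosidase (0.946), CG1468 (0.937) and CG7997 (0.923). PGRP-LB was closest to udt (0.854), Def, the antimicrobial peptide Defensin (0.823), and CG13311 (0.817). For PGRP-LE they were betaggt-I (0.767), NimC1, a phagocytic receptor of blood cells (0.767), and CG34427 (0.762). For spz they were Cbl, a ubiquitin ligase (0.836), ClC-b (0.827) and CG16978 (0.818), and for dl Irbp18 (0.869), CG12868 (0.867) and CG13603 (0.844).

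Other genes of the same pathways were taken from lists and counted by the same calls. Of 13 further recognition genes, 6 were on the array. In Old flies 3 of the 6 were called higher and none lower, with a list median of 0.43 against 0.03 over all genes. Among all genes the share called was 14.9% with age, 8.23% under Hyperoxia, 14.0% after heat, 16.0% after irradiation, 18.7% on peroxide and 5.06% on sucrose alone. PGRP-LF, an inhibitor of Imd, averaged 173 ± 28.1 in Old flies and 76.5 ± 39.6 in Young controls (SD, n = 4 and 6; log2 fold change 0.97, limma adjusted p = 0.00157). PGRP-LA was higher by 0.61 and GNBP3, a sensor of fungal glucan upstream of Toll, by 0.62 (adjusted p = 0.0336).

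The amidase gene PGRP-SC2 was called lower in 4 groups, all but Old and Sugar. It averaged 728 ± 191 in Hyperoxia flies and 3411 ± 298 in Young controls (SD, n = 6 each; -2.21, adjusted p = 9.75e-12). It averaged 762 ± 298 on peroxide, 896 ± 80.5 after irradiation and 1383 ± 179 in Heat stress, against 3055 ± 266 in Stress controls (log2 fold changes -2.05, -1.73 and -1.13). GNBP3 was lower on peroxide (-2.02) and after irradiation (-1.42). GNBP2 was lower in Heat stress (-1.30) and higher after irradiation (0.74, adjusted p = 0.032). PGRP-LF was higher on peroxide (1.09) and in Hyperoxia (0.64, adjusted p = 0.0297). Compared with Sugar flies, PGRP-LF on peroxide (0.54, limma adjusted p = 0.12) and GNBP2 after irradiation (0.62, adjusted p = 0.0784) were not called. PGRP-SC2 and GNBP3 were called lower than in Sugar flies both on peroxide (-1.68 and -2.07) and after irradiation (-1.35 and -1.47).

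Of the 7 measured genes that process the Toll ligand, none was called higher in any of the 6 groups, and list medians ran from -0.66 in Heat stress to 0.18 in Old flies. SPE, the protease that cuts Spatzle, averaged 1926 ± 212 in Heat stress, 1952 ± 359 after irradiation and 2679 ± 860.5 on peroxide, against 5415 ± 479 in Stress controls (SD, n = 3, 4, 4 and 4). The log2 fold changes were -1.48, -1.47 and -1.07, with limma adjusted p of 6.72e-06, 1.09e-06 and 0.000112. In Hyperoxia flies SPE was lower by 0.64 (adjusted p = 0.00657). Heat stress also had lower psh (-1.09) and Hayan (-1.64), both proteases upstream of SPE, and lower nec (-0.66), a serpin that inhibits this cascade. The protease homolog sphinx1 was lower in Hyperoxia (-0.78), after irradiation (-1.68) and on peroxide (-1.35). None of these genes was called in Old flies, in which spz itself was called higher.

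Of 10 measured genes between the Toll receptor and dl, 2 were called higher on peroxide, 1 in Hyperoxia and 1 after irradiation. The shares called among all genes were 18.7%, 8.23% and 16.0% in those groups. None of the 10 was called in Old, Heat stress or Sugar flies, where the shares were 14.9%, 14.0% and 5.06%. List medians were 0.08 to 0.20. Cactin, whose protein binds Cactus, averaged 822 ± 89.1 after irradiation and 622 ± 149 on peroxide, against 317 ± 30.7 in Stress controls (SD, n = 4 each; 1.28 and 0.88), and rose by 0.74 in Hyperoxia. The kinase gene pll was higher on peroxide by 0.60 (adjusted p = 0.000601). Of 10 further Toll receptors and Spatzle relatives, 18w was lower in Old (-0.87), Heat stress (-0.95), Ionizing radiation (-1.29) and Hydrogen peroxide flies (-1.02), and no other gene of that list was called in the 6 contrasts.

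Among 17 measured Imd genes, 4 were called higher on peroxide, 2 each in Old, Heat stress and Ionizing radiation flies and 1 in Hyperoxia, and 1 was called lower in Sugar. The list median was 0.23 in Old, against 0.03 over all genes, 0.17 in Hyperoxia, against 0.02, and 0.16 after irradiation, against 0.03. In the other 3 groups it was -0.01 to 0.10. The largest change was that of pirk, a negative regulator of Imd, which averaged 965 ± 228 in Old flies and 186 ± 34.2 in Young controls (SD, n = 4 and 6; 2.17, limma adjusted p = 5.68e-09). It was also higher on peroxide (1.31) and in Heat stress (0.99). Tab2, the partner of the kinase Tak1, was higher on peroxide (1.10), after irradiation (1.07) and in Hyperoxia (0.59). POSH, a ubiquitin ligase, was higher in Old (0.60, adjusted p = 0.0172), Ionizing radiation (1.39) and Hydrogen peroxide flies (0.78). The inhibitor dnr1 was higher in Heat stress (1.58) and on peroxide (0.82, adjusted p = 0.0652) and lower in Sugar (-0.74, adjusted p = 0.176). The calls with an adjusted p above 0.01 rest on the nested F-test.

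**Figure D5:**
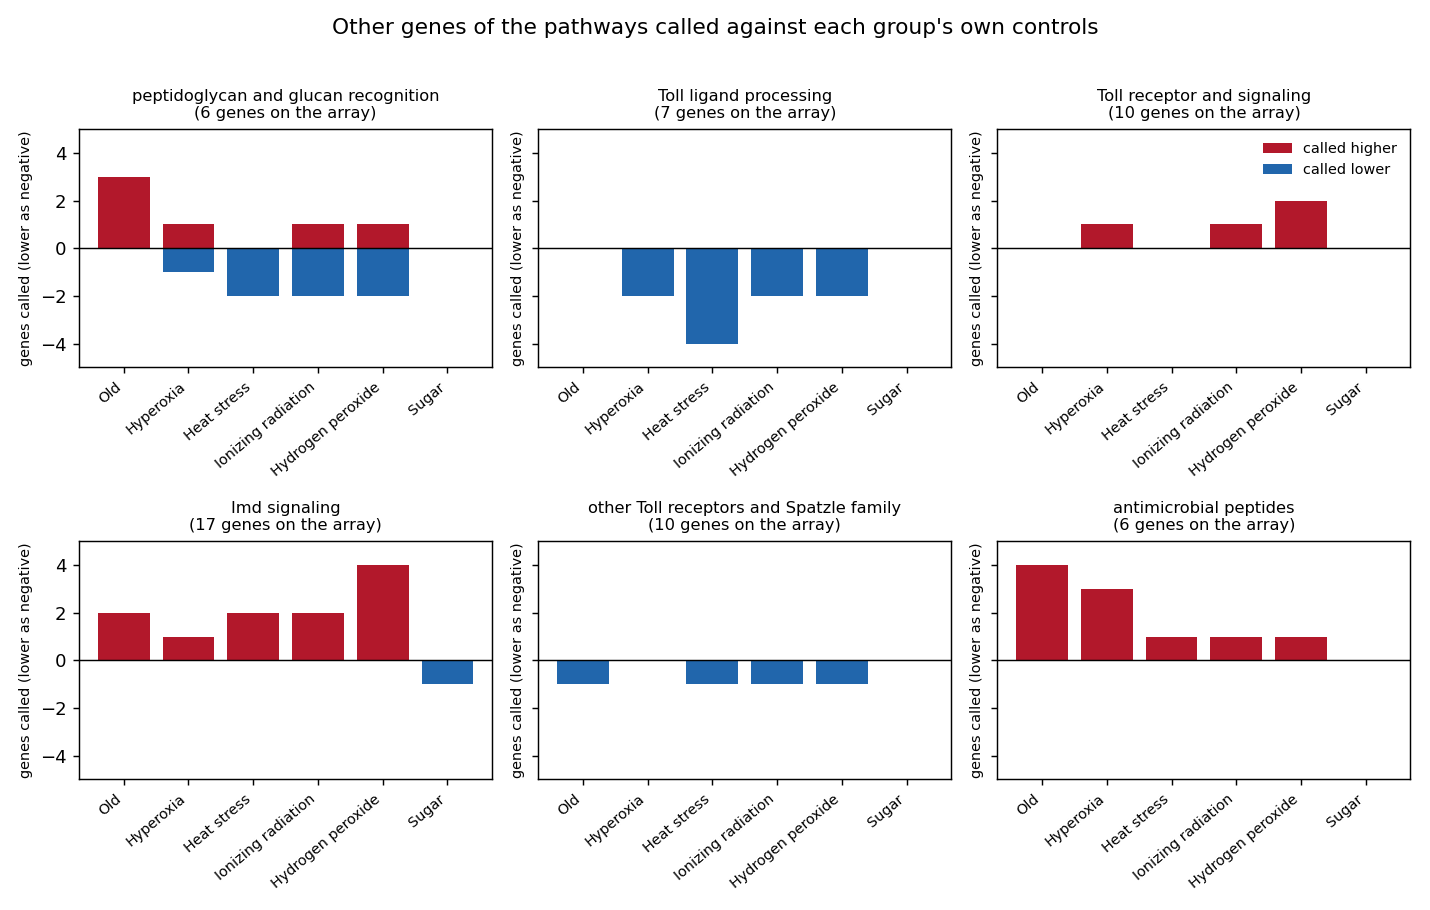
Number of genes of each pathway list called higher (red, above 0) or lower (blue, below 0) in each group against the controls of its study. Antimicrobial peptide genes have the most calls in Old flies (4 of 6), and genes that process the Toll ligand have calls below 0 alone.

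Antimicrobial peptide genes are the usual targets of both pathways, and 6 of the 14 listed were on the array. In Old flies 4 were called higher, with a list median of 2.91. Def averaged 3882 ± 677 in Old flies and 77 ± 88.7 in Young controls (SD, n = 4 and 6; 5.38, limma adjusted p = 2.58e-12), and Drs, encoding Drosomycin, 14098 ± 4457 and 3083 ± 1077 (2.18, adjusted p = 1.04e-07). DptB (3.66) and Mtk (3.64) were higher with wide spreads, 17283 ± 10494 and 19748 ± 9795 in Old flies. CecB (1.63, limma adjusted p = 0.00322) and AttD (1.71, adjusted p = 0.00237) were also above the fold limit in Old flies but did not pass the nested F-test. In Hyperoxia flies CecB (2.05), Def (1.40) and Drs (1.11) were called higher. Between Old and Hyperoxia flies CecB differed by -0.42 (limma adjusted p = 0.527), which was not called.

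After heat, irradiation and peroxide, Drs was the only one of the 6 that was called, by 2.48, 2.45 and 1.26. It averaged 6223 ± 1753, 6335 ± 2971 and 2595 ± 459 in those groups, against 1054 ± 79.7 in Stress controls (SD, n = 3, 4, 4 and 4). By quantitative PCR of separately derived RNA, the paper on these arrays reported lower Drs after heat, the opposite direction. Compared with Sugar flies, Drs was called higher after irradiation (1.83, limma adjusted p = 8e-06). The peroxide difference from Sugar, 0.63, did not pass (adjusted p = 0.103). On peroxide, where Rel had its largest change, Def averaged 33.3 ± 11.1 against 20.5 ± 2.88 in Stress controls, CecB 13.5 ± 6.85 against 14.5 ± 1.41, and DptB 325 ± 61.4 against 569 ± 368. None of these differences passed. The difference between the Old and the peroxide change was 5.09 for Def (adjusted p = 2.63e-08) and 4.24 for DptB (adjusted p = 0.00122). For the other 4 peptide genes it did not pass, at 3.98 for Mtk (adjusted p = 0.0174), 1.67 for CecB (0.0403), 1.78 for AttD (0.0313) and 0.92 for Drs (0.0738). The Def and CecB means were under the added constant, which pulls fold changes toward 0.

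Tissue markers moved in the same arrays. Their sums add the signals of all markers of a tissue, so the brightest probe sets weigh most. Digestive serine proteases of the gut were called lower for 11 of 20 genes in Old flies, 17 under Hyperoxia, 17 after heat, 18 after irradiation, 19 on peroxide and 12 on sucrose alone, and none was higher. Their summed signal was 141697 to 192765 in Old and 145026 to 176384 in Hyperoxia flies, against 276433 to 307974 in Young controls. It was 93711 to 106662 in Heat stress, 110934 to 130868 after irradiation, 35589 to 61537 on peroxide and 172746 to 182077 in Sugar, against 261326 to 287776 in Stress controls. The sums of all 6 groups lay below those of their controls without overlap.

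Fat body markers summed to 48555 to 52931 in Old and 24494 to 31365 in Hyperoxia flies, against 40432 to 53162 in Young controls, with 1 of 8 called higher in Old and 1 higher and 3 lower in Hyperoxia. They summed to 33703 to 42299 in Heat stress, 27606 to 31634 after irradiation, 16777 to 24007 on peroxide and 38826 to 42079 in Sugar, against 41527 to 48472 in Stress controls. On peroxide 1 fat body marker was called higher and 4 lower, and after irradiation 2 higher and 3 lower. After heat 1 was higher and 1 lower. On sucrose alone 1 was higher (bmm, 0.71, adjusted p = 0.0694 in limma) and 2 lower (Lsp2, -2.74, and plin1, -0.98). Lsp2 was among those lower on peroxide (-1.19) and after irradiation (-1.25), but compared with Sugar flies it was called higher, by 1.55 and 1.49. The others called lower in these groups (apolpp, plin1 and, on peroxide, FASN1) were also called lower than in Sugar flies.

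Blood cell markers summed to 4450.2 to 5969 in Old and 5329.7 to 7340.3 in Hyperoxia flies, against 7223 to 7736 in Young controls, so Old arrays lay below the controls without overlap. Of the 10 genes, 3 were called higher in Old flies (NimC1, srp and crq) and 2 lower, the prophenoloxidase genes PPO1 (-2.24) and PPO2 (-3.48), and none was called under Hyperoxia. The sums were 3011 to 3592 in Heat stress, 4924 to 5967 after irradiation, 3273 to 4002 on peroxide and 5562 to 6305 in Sugar, against 5778 to 6493 in Stress controls. Heat and peroxide each had 4 blood cell markers lower, irradiation had 1 lower (PPO1, -1.22), and Sugar had 1 higher (srp, 0.76).

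Testis marker sums also set Old flies apart, at 43594 to 54788 in Old and 94988 to 101690.3 in Hyperoxia flies, against 76387 to 88359.9 in Young controls. Old arrays were below and Hyperoxia arrays above the controls, and 5 of 12 testis markers were called lower in Old flies. Mean signal over all arrays ran from 35.8 (bam) to 27817 (Mst84Db) among these 12. Testis sums were 88311 to 98225 in Heat stress and 84975 to 100569.7 after irradiation, both above the 69336 to 77414 of Stress controls, with 77333 to 85898 on peroxide and 63172 to 70270.4 in Sugar. Male accessory gland markers were called lower for 9 of 10 genes after irradiation and on peroxide, 7 under Hyperoxia, 5 in Sugar, 3 after heat and 3 in Old flies, where 1 was higher. Female markers summed to 2983 to 3599.8 in Old and 1487 to 3315 in Hyperoxia flies, against 1617 to 2649.6 in Young controls, with Old arrays above the controls and 1 of 7 called higher. In the stress study female sums ran from 1009 to 1790.4. The fat body is the main tissue of the Toll response, and the part that tissue content had in the members' values was not tested.

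On RNA quality, the 3' to 5' signal ratio of the actin control was 283 on Old replicate 2 and 7.44 on Ionizing radiation replicate 1, and 1.48 to 7.09 on the other 33 arrays. Without those 2 arrays, PGRP-SB1, PGRP-LB, spz, cact and Rel were still called in Old flies, and dl was not (0.50).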

How the data were processed

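RNA from 35 pools of whole male flies was measured on 1 Affymetrix DrosGenome1 array each. The deposited values are linear signal intensity per probe set, made by the authors with MAS5 (submitters' processing notes, version not given in the sources used here). The 4 Sugar arrays were on a lower scale, with trimmed means of 107 to 167 against 1000.2 on the other 31 arrays. In every contrast with Sugar, effects of this scale and of treatment cannot be told apart. The fit to values as deposited left the Sugar arrays out. Arrays were quantile normalized on the log2 scale, 34.1 (the 10th percentile) was added, and the 13966 non-control probe sets (44 controls left out) were fitted with 8 group means in limma 3.58.1 (R 4.3.3, 27 residual degrees of freedom). Adjusted p-values are two-sided, by the Benjamini-Hochberg method within each contrast over all probe sets. Probe sets were named from the platform annotation: 12443 had 1 gene, 327 several and 1196 none. Arrays have no read depth, and how many there are in a group limits precision.

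The members and gene lists were chosen with earlier results of these data known. Named genes were the 7 members, in every list and contrast the called genes that changed most (up to 4), and the 3 probe sets most alike to each member. Values given for peptide genes that were not called were added after their values were seen. The procedure was tested on simulated data. Replicate numbers did not pair arrays. Alternatives covered normalization, pseudocount, filter, samples fitted, call rule, variance model, array weights, replicate blocks and each array left out in turn. Leaving out the arrays of highest actin ratio and the block by description number were added after the data were seen. No genome build is named in the sources used here, and no sequences or coordinates are given.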

Additional observations from a re-analysis of the deposited data

Results flagged for a closer look

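The dl signal of Hyperoxia replicate 3 was 289.5, far below the other 5 Hyperoxia arrays, the nearest of which read 432. The gap was 0.729 of the group's range, above Dixon's 95% critical value for 6 samples. Without this array the log2 fold change of dl in Hyperoxia flies was 0.89, against 0.79 with it, and the gene was called both ways. In all, 49 combinations of member and group were examined in this way and 1 stood out, where chance gives about 1 in 20.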

How the results depend on the processing

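Of the member calls in each comparison, the number moved by more than 1.5 times in these cases: in Sugar, 2 with a pseudocount of 1 and 3 with a fold limit of 1.2, against 1; in Hyperoxia, 6 with the fold limit of 1.2, against 3; for Hydrogen peroxide against Ionizing radiation, 1 with only those groups fitted, against 3; and for the Old minus Ionizing radiation differences, 4 with array weights and 5 without the 2 arrays of highest actin ratio, against 2. With 1 array left out at a time the Sugar count was 1 to 2 and the counts for Hydrogen peroxide against Ionizing radiation, and for the Old minus Sugar differences, were each 2 to 4. Single calls ended as follows. With only the groups compared, 10 did: dl in Old (adjusted p = 0.0349) and Hydrogen peroxide flies (0.019), PGRP-SB1 in Hyperoxia (0.0525), PGRP-LE in Heat stress (0.0221), dl (0.0206) and Rel (0.01) in Ionizing radiation against Sugar, PGRP-SB1 (0.0371) and Rel (0.0515) in Hydrogen peroxide against Ionizing radiation, spz in Old against Hyperoxia (0.0111) and the spz difference between Old and Sugar (0.0129), all from limma. With the 25th-percentile pseudocount of 108, 3 did: dl in Old (0.50), Rel in Hyperoxia (0.57) and PGRP-LB in Hydrogen peroxide against Sugar (0.56). Scaling to the 75th percentile ended dl in Ionizing radiation against Sugar (0.70) and PGRP-LB in Hydrogen peroxide against Sugar (0.58), which quantile normalization within each study also ended (0.58). Fitting 1 study ended PGRP-LE in Heat stress, dl in Old and dl in Ionizing radiation against Sugar, and the test within the contrast ended dl in Old and PGRP-SB1 in Hyperoxia. Array weights ended dl in Old (0.52) and Rel in Hydrogen peroxide against Ionizing radiation (0.54), and so did leaving out the 2 arrays (0.50 and 0.52), which also ended the spz difference between Old and Sugar (0.69). The signs that turned belonged to differences near 0 that were never called. PGRP-LB in Ionizing radiation flies (-0.05) was 0.01 with the values as deposited and 0.02 without the 2 arrays, and -0.10 to 0.02 with 1 array left out. The dl difference between Old and Sugar (0.05) was -0.06 with array weights and -0.08 without the 2 arrays, and -0.08 to 0.24 with 1 left out. PGRP-LE in Ionizing radiation flies ran from -0.15 to 0.17 and spz in Heat stress flies from -0.06 to 0.08. The cause of these changes was not tested.

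Over all probe sets, fitting only the groups compared gave 453 calls for Hydrogen peroxide against Ionizing radiation, against 1245, and 1061 for Heat stress, against 1719. The test within the contrast gave 428 for Sugar, against 689. A fold limit of 1.2 gave 3104 for Old, against 1834, 2190 for Hyperoxia, against 1022, 2891 for Heat stress, against 1719, 3168 for Ionizing radiation, against 2015, and 1717 for Sugar, against 689. Arrays with the same replicate number did not deviate together: correlations were -0.134 to 0.106 over 107 pairs by title number and -0.104 to 0.0748 over 98 pairs by description number. With the title number as a replicate block, 97 of 98 member values kept their call and the cact difference between Old and Ionizing radiation passed (-0.53). With the description number as the block, 95 did, and the cact differences from Heat stress, Ionizing radiation and Sugar passed (0.49, -0.48 and 0.51).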
